A study of Mus musculus with 19 samples.

Results

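Syndecans and glypicans are the cell-surface heparan sulfate proteoglycans, and their 10 mouse genes (Sdc1 to Sdc4 and Gpc1 to Gpc6) were followed here by gene symbol in a table of 24537 genes. All 10 were listed, and 8 passed the filter for testing, a mean of at least 1 TPM (a transcript abundance scaled by length and library total) over 19 libraries; Sdc1 and Gpc3 did not. The libraries held nuclear RNA from cortex of C57BL/6J mice at postnatal day 26 to 28, from nuclei sorted as positive for SOX9, an astrocyte transcription factor, and negative for NEUN, a neuronal nuclear protein. All mice carried floxed Smad4 alleles (Smad4 fl/fl), so the control differed from wild type at that locus. WT (n = 4) was Fmr1 +/y without Cre, Smad4 cKO (n = 6) was Fmr1 +/y with GFAP-cre, Fmr1 KO (n = 5) was Fmr1 -/y without Cre, and the double mutant (n = 4) was Fmr1 -/y with GFAP-cre. Cre came from the Gfap-Cre73.12 line, which uses the promoter of an astrocyte intermediate filament gene, and the sort did not select Cre-expressing nuclei. The series text calls the libraries of a genotype biological replicates; it does not say whether each came from 1 mouse, so p-values measure only the spread between these libraries.

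Heparan sulfate proteoglycans carry long sulfated sugar chains that bind growth factors, morphogens and adhesion molecules at the cell surface. Syndecans span the membrane and end in a short cytoplasmic tail that binds scaffold proteins, whereas glypicans are held in the outer leaflet by a lipid anchor and can be released from it. In brain, astrocytes release glypicans that act on neuronal synapses, with Gpc4 and Gpc6 known for recruiting AMPA-type glutamate receptors. Smad4, the target of the Cre, encodes the SMAD shared by BMP and TGF-beta signalling, and Fmr1 encodes a regulator of translation whose silencing causes fragile X syndrome.

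The groups are called by their labels, because the gene-level TPM did not show a loss of either targeted gene. Smad4 was at 32.4 ± 2.24 scaled TPM (SD, n = 6) in the libraries labelled Smad4 cKO against 33.3 ± 2.62 (n = 4) in WT. Fmr1 was higher with the Fmr1 KO label. It was at 38.9 ± 1.94 (n = 5) in Fmr1 KO against 26.2 ± 4.29 (n = 4) in WT. The double mutant held 37.1 ± 1.37 of Fmr1 (n = 4) against 23.8 ± 2.73 (n = 6) in Smad4 cKO. For scaled TPM each library's deposited values were divided by a median-ratio factor (0.918 to 1.07). All 10 astrocyte markers were tested and summed to between 4980 and 8231 scaled TPM per library, against 46.5 to 263 for 10 neuronal markers. Other cell types were present: summed markers reached 3735 for oligodendrocytes, 593 for their precursors, 395 for microglia, 603 for endothelial cells and 275 for mural cells and fibroblasts. Read depth is unknown with TPM. The labels do not state if introns or strand entered the counting.

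In the sorted nuclei of WT, which included other cell types, the 10 genes spanned a wide range. The order of their levels is given per length because TPM is length-scaled. Which length was used is not stated, and the order between genes could depend on it. Exons make up 0.311% of the span of Gpc5 and 67.3% of that of Gpc2. Sdc4, the broadly expressed syndecan of focal adhesions, was highest with values of 170.2, 203, 131 and 259.8 scaled TPM (mean 190.9 ± 54.5, SD, n = 4). Gpc5, a glypican with astrocyte expression, followed at 114, 137, 112 and 122 (121 ± 11.4). These ranges overlapped between libraries, but within each of the 4 WT libraries Sdc4 held rank 1 and Gpc5 rank 2. Gpc2, known as cerebroglycan and described mainly in developing neurons, came next at 54.7 ± 9.19. Sdc2 was at 33.4 ± 4.69, Gpc6 at 26.2 ± 2.58 and Sdc3 at 22.1 ± 2.29. Neighbours among these 3 genes overlapped, although each WT library kept this order (ranks 4, 5 and 6). Below them and without overlap stood Gpc1 at 13.8 ± 2.41 and then Gpc4 at 6.93 ± 0.571. Sdc1, best known from epithelia and plasma cells, was at 0.634 ± 0.0553, and Gpc3, a regulator of growth in the embryo, was lowest at 0.197 ± 0.0577.

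**Figure D1:**
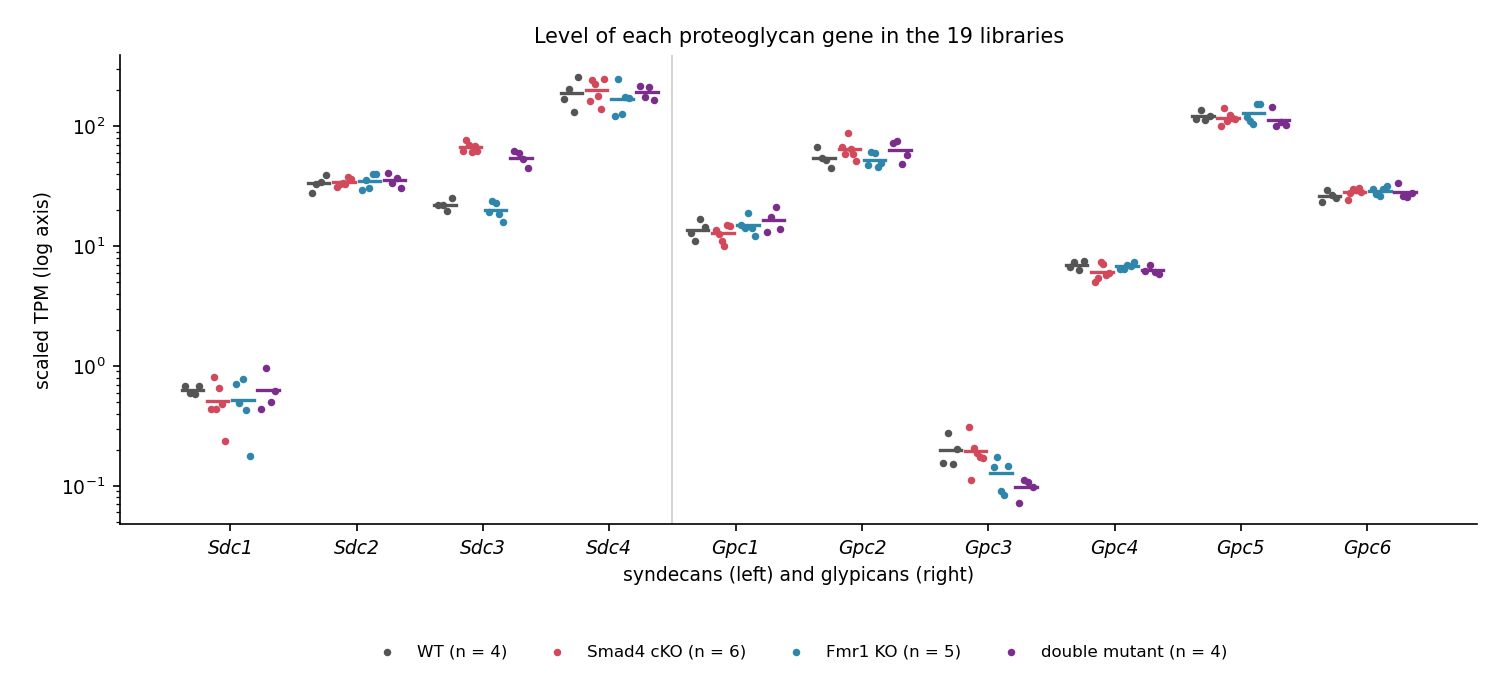
Scaled TPM (log axis) of the 4 syndecans and 6 glypicans in 19 libraries, coloured by genotype label; points are libraries and bars are group means. Sdc3 sits at 44.6 to 77.4 in the libraries labelled Smad4 cKO or double mutant and at 15.95 to 25.1 in the others, while the other genes overlap between Smad4 labels, with Gpc3 lowest in the double mutant.

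Within genotypes the members differed in how much libraries varied. Sdc4 was the most variable of the 8 tested, with a pooled within-group coefficient of variation of 24.3%. Its 5 values in Fmr1 KO were 121, 246, 127, 176.5 and 171. Gpc6 varied least at 9.62%, with Gpc4 at 10.4%, Sdc2 at 11.9% and Sdc3 at 12.8% close behind.

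Sdc3 was the member that changed with the Smad4 label. Sdc3, also called N-syndecan, is a receptor for the heparin-binding factor pleiotrophin and is described mostly in neurons and their axons. It stood at 21.9, 21.9, 19.5 and 25.1 scaled TPM in WT. In the 6 libraries labelled Smad4 cKO it had a lowest value of 61.2, a median of 65.3 and a highest value of 77.4 (mean 66.8 ± 6.41, SD). Every library labelled Smad4 cKO was above every WT library, with a wide gap between the groups. The log2 difference was 1.55 ± 0.11 (SE; a 2.94-fold rise, 95% interval 2.49 to 3.46; limma adjusted p = 3.55e-07 over 15049 genes). Of the 8 tested members 1 passed in this comparison, beside a background of 0.784% of all genes tested, or 0.525% in the upward direction.

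The same comparison on the Fmr1 KO background gave a similar value for Sdc3. Fmr1 KO libraries stood at 19.4, 23.6, 22.9, 18.6 and 15.95 scaled TPM, and the double mutant at 62.1, 59.5, 52.8 and 44.6. Again the groups did not overlap. Sdc3 rose by 1.40 ± 0.12 on the log2 scale (2.65-fold, 95% interval 2.23 to 3.14; limma adjusted p = 3.56e-06), and it was the 1 member of 8 that passed, where 0.405% of all genes passed and 0.193% rose. No evidence of a difference between the Smad4 effects on the 2 Fmr1 backgrounds was found: the interaction was -0.15 ± 0.16 (95% interval -0.49 to 0.19; limma adjusted p = 1.00), in a comparison where 0% of genes passed (0 genes by limma, 250 at an unadjusted p under 0.05). Averaged over both backgrounds, Sdc3 rose by 1.48 ± 0.08 (2.79-fold; limma adjusted p = 4.08e-09), with 1.81% of all genes passing and 1.04% rising. By p-value it held position 4 of 15049 genes there.

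Exact permutation of the libraries gave the smallest p each design allows for Sdc3, two-sided: 0.00476 for Smad4 cKO against WT and 0.00794 for the double mutant against Fmr1 KO. Adjusted over the 32 tests of 8 members and 4 simple comparisons, both became 0.127, so this test alone did not reach 0.05 after adjustment. With p bounded by the group sizes, 1 member alone could not reach 0.05 over 32 tests, so the design fixed this miss. Lack of overlap with higher values was met by 1.38% of all genes in the former comparison and 1.3% in the latter. Over the pooled libraries, all 10 with a Smad4 cKO label stood above all 9 without for Sdc3, which 0.272% of all genes also did. In bulk nuclei, fewer cells of a type and less RNA per cell cannot be told apart.

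Within day 26 the log2 difference between Smad4 cKO labelled and intact libraries was 1.49 (5 against 3 libraries), and within day 27 it was 1.48 (4 against 5). None of 8 marker lists had a member that passed in the comparison averaged over both backgrounds; their median log2 changes ran from -0.19 for neurons to 0.51 for oligodendrocytes, with astrocytes at 0.08. With neuron, oligodendrocyte and endothelial marker scores in the model the averaged Sdc3 change was 1.46 (limma adjusted p = 5.52e-07). Sdc3 was also the 1 member of 8 that passed in every alternative run for these comparisons, and its change stayed between 1.50 and 1.61 (Smad4 cKO against WT) and between 1.33 and 1.50 (double mutant against Fmr1 KO).

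Sdc3 lies on chromosome 4 at chr4:130792537-130826319 on the plus strand (GRCm38, GENCODE vM21), and 17.7% of its span is exonic. Antisense transcripts Gm12970 and Gm26716 overlap Sdc3 exons on the other strand, and without stated strand use their reads cannot be told apart from those of Sdc3.

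Promoter sequences of Sdc3 and Sdc4 are shown because one gene rose with the Smad4 label and the other, the syndecan with the highest TPM, did not pass. The windows are the 250 bases before the RefSeq start (GRCm38.p6), each written 5′ to 3′. Sdc3 is at chr4:130792287-130792536 on the plus strand and Sdc4 at chr2:164443189-164443438 on the minus strand. The 2 windows are unlike by the GENCODE vM21 annotation. The Sdc3 window ends just before the gene, whereas the Sdc4 window lies inside the span of Sdc4 (chr2:164424247-164443887). Capitals mark the SMAD-binding core GTCT or its reverse complement AGAC, and GGCGC or its reverse complement GCGCC, a GC-rich SMAD motif.
Sdc3: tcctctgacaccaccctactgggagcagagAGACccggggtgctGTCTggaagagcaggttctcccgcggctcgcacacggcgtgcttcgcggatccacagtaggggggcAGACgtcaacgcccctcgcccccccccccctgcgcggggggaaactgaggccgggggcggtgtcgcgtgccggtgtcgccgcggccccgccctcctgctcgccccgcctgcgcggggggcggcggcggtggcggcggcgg
Sdc4: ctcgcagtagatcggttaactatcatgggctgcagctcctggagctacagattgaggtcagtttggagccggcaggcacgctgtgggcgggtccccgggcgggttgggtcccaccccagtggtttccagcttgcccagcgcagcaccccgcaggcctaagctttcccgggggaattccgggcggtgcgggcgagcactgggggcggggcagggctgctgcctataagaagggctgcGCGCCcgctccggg
The Sdc3 window held 3 GTCT or AGAC matches and no GGCGC or GCGCC match, and the Sdc4 window held 0 of the former and 1 of the latter. A GTCT or AGAC match was present in 82.9% of 32851 windows of the same length, with a mean of 1.87 per window, and a GGCGC or GCGCC match in 32.02%. Of the members, 7 had a window in the table; GTCT or AGAC matches numbered 2 in Gpc2, 1 each in Sdc1 and Gpc4, and 0 in Gpc3 and Gpc5. The palindrome GTCTAGAC, which joins both cores and was found in 0.167% of windows, was in none of the 7. These matches describe letters in a window and do not show binding.

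The Sdc3 difference can be set beside that of each other tested member within the same libraries. The log2 value of Sdc3 minus that of the member shifted between WT and Smad4 cKO by 1.32 for Gpc2, the least, to 1.72 for Gpc4. Between Fmr1 KO and the double mutant the shift ranged from 1.16 for Gpc2 to 1.57 for Gpc5. These shifts reuse the same Sdc3 values, and Sdc3 was singled out for its separation by Smad4 label, so they are a description with no test.

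**Figure D2:**
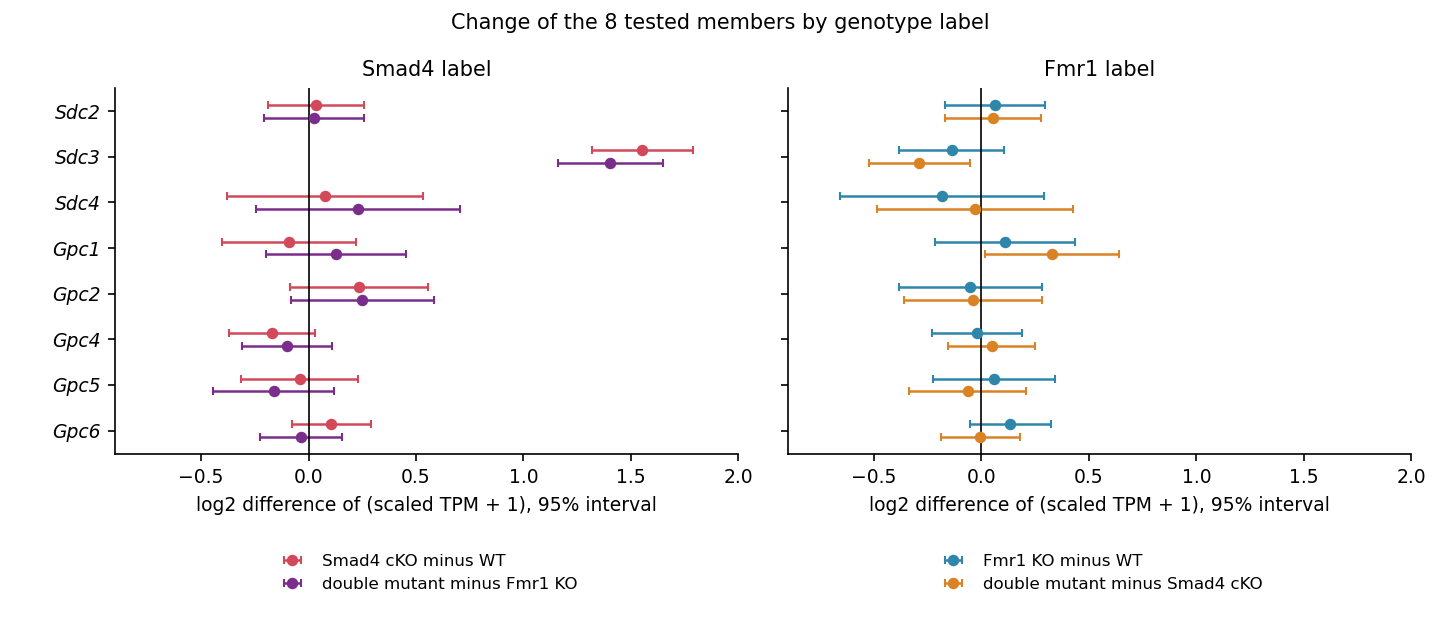
Log2 difference of (scaled TPM + 1) with its 95% limma interval for the 8 tested members, by Smad4 label (left) and by Fmr1 label (right). Sdc3 stands at 1.55 and 1.40 for the Smad4 label, and the other 7 intervals on the left include 0.

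The rise moved Sdc3 up the order of the family. In each of the 9 libraries without a Smad4 cKO label it held rank 6 of the 10 members, and in those with one it held rank 3 or 4. In WT it made up 4.72 ± 0.246% of the summed level of the 10 members (SD, n = 4), and in Smad4 cKO 12.6 ± 1.2% (n = 6). The corresponding shares were 4.49 ± 0.963% in Fmr1 KO and 10.7 ± 0.906% in the double mutant. Among the 4 syndecans alone its share went from 9.18% in WT to 22.5% in Smad4 cKO, while Sdc4 held 76.6% and 65.7%. In Smad4 cKO the level of Sdc3 overlapped that of Gpc2 and stood above that of Sdc2, which it was below in WT. Summed over the 6 glypicans the level was 223 ± 12.0 in WT and 230.4 ± 15.8 in Smad4 cKO.

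**Figure D3:**
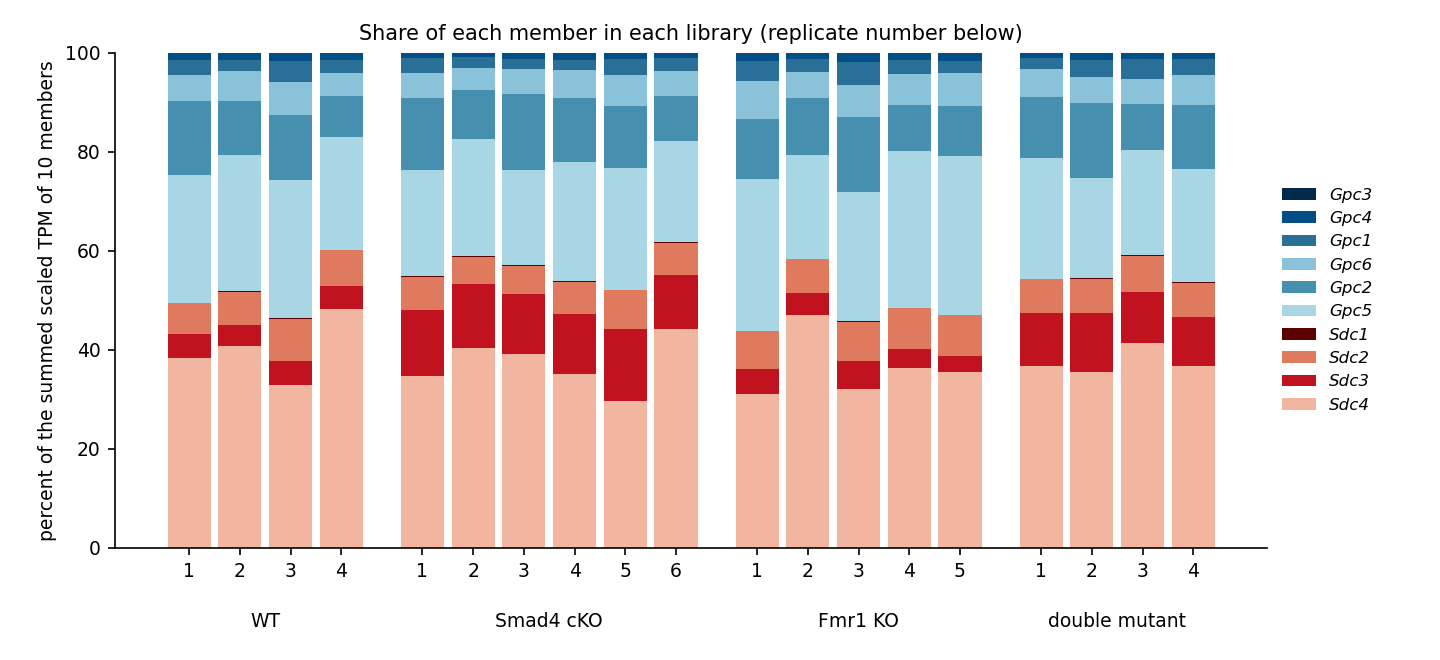
Percent of the summed scaled TPM of the 10 members taken by each gene, 1 bar per library, grouped by genotype label. The share of Sdc3 is 3.31 to 5.77% in the libraries without a Smad4 cKO label and 9.96 to 14.4% in those with one.

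The other syndecans did not pass in any of the 8 comparisons. Sdc4, which binds protein kinase C alpha through its tail, averaged 190.9 ± 54.5 in WT, 199.7 ± 45.1 in Smad4 cKO, 168 ± 50.4 in Fmr1 KO and 192 ± 26.4 in the double mutant. The 6 Smad4 cKO libraries ran from 141 to 248 and the double mutant libraries from 164 to 217. The groups overlapped throughout, and the Smad4 difference averaged over both backgrounds was 0.15 ± 0.16 (95% interval -0.18 to 0.48; limma adjusted p = 0.853). Sdc2, described in dendritic spines, stood at 27.6, 33.2, 34.0 and 39.1 in WT and at 31.4 to 37.7 in Smad4 cKO. Fmr1 KO gave 29.2, 35.3, 30.8, 39.7 and 39.9, and the double mutant 40.8, 33.6, 37.3 and 30.4, so that all 4 groups overlapped. Its averaged Smad4 difference was 0.03 ± 0.08 (95% interval -0.13 to 0.19; adjusted p = 0.958), an interval that excludes a rise of the size seen in Sdc3. Sdc1 was listed above 0 in every library, between 0.178 and 0.953. Without the filter on low values its averaged Smad4 difference was -0.01 ± 0.08 (limma adjusted p = 0.990).

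None of the 5 tested glypicans passed with the Smad4 label, where 1.81% of all genes did. Gpc4 and Gpc6, the glypicans known for astrocyte control of synapses, differed by -0.14 ± 0.07 (95% interval -0.28 to 0.01; limma adjusted p = 0.520) and 0.04 ± 0.06 (-0.10 to 0.17; adjusted p = 0.927) on average over both backgrounds. Gpc4 stood at 6.64, 7.33, 6.27 and 7.47 scaled TPM in WT, and in Smad4 cKO its lowest, median and highest values were 5.01, 5.81 and 7.41. Of the 6 Smad4 cKO values 4 were below the lowest WT value, and the ranges overlapped. Gpc6 stood at 23.3, 29.4, 26.9 and 25.2 in WT and at 24.1, 28.8 and 30.3 (lowest, median, highest) in Smad4 cKO, again with overlap. Gpc5, the glypican with the highest TPM, was at 118, 109.9, 103, 153 and 154 in Fmr1 KO and at 144, 100.02, 108 and 102 in the double mutant. These groups overlapped, 2 of the 5 Fmr1 KO libraries standing above every double mutant library. Averaged over both backgrounds Gpc5 differed by -0.10 ± 0.09 (adjusted p = 0.826). Gpc1, a glypican that binds the guidance factor Slit, differed by 0.02 ± 0.11 (adjusted p = 0.982).

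Gpc2 was the glypican with the largest Smad4 difference of the 5 tested. Its values in WT were 67.1, 54.4, 52.4 and 45.0 scaled TPM, and in Smad4 cKO the lowest, median and highest were 51.2, 62.1 and 88.3. Fmr1 KO gave 47.2, 60.6, 59.8, 45.7 and 49.3, and the double mutant 71.9, 75.0, 48.1 and 57.5. The averaged Smad4 difference was 0.24 ± 0.11 (95% interval 0.01 to 0.47), with an unadjusted p of 0.0407 and a limma adjusted p of 0.419, so it did not pass. Gpc2 shares 6304 bases on its own strand with the protein-coding gene Gm43720, and the labels do not state how such reads were divided.

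No member passed with the Fmr1 label. In Fmr1 KO against WT 0% of genes passed (0 by limma, 1239 at an unadjusted p under 0.05), and in the double mutant against Smad4 cKO 0.0199% did. Averaged over both Smad4 backgrounds 1.53% of all genes passed and 0 of the 8 members. Sdc3 had the smallest p among them, at -0.21 ± 0.08 (95% interval -0.38 to -0.04; unadjusted p = 0.0165; limma adjusted p = 0.233). The double mutant was below Smad4 cKO by -0.29 ± 0.11 in Sdc3 (adjusted p = 0.532), with 1 of 4 double mutant libraries inside the Smad4 cKO range; exact two-sided permutation gave p = 0.0190, or 0.203 after adjustment. Within day 26 the Fmr1 difference of Sdc3, averaged over Smad4 labels, was -0.06, and within day 27 it was -0.35. Gpc1 stood at 12.9, 11.01, 16.7 and 14.3 in WT and at 15.1, 14.2, 18.7, 14.3 and 12.2 in Fmr1 KO. The double mutant gave 13.2, 17.6, 21.2 and 13.96, above or within the Smad4 cKO range of 9.97 to 14.9. The Fmr1 difference of Gpc1 averaged over Smad4 labels was 0.22 ± 0.11 (unadjusted p = 0.0568; limma adjusted p = 0.395). The double mutant against WT, which changes both loci at once, gave Sdc3 at 1.26 ± 0.12 (2.40-fold; limma adjusted p = 3.39e-05) as the 1 member of 8 that passed, with a background of 0.957%.

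Gpc3 was too low for the test and is given by its values. It stood at 0.152 to 0.276 scaled TPM in WT, 0.112 to 0.312 in Smad4 cKO, 0.0845 to 0.174 in Fmr1 KO and 0.0718 to 0.112 in the double mutant. WT and the double mutant did not overlap, the double mutant being lower. It was also lower without overlap in 2.85% of the genes tested, a set that leaves out Gpc3. The share among genes as low as Gpc3 was not computed. Without the filter on low values the Fmr1 difference averaged over both Smad4 backgrounds was -0.10 ± 0.03 on the log2(scaled TPM + 1) scale, which understates changes of so low a gene (unadjusted p = 0.00285; limma adjusted p = 0.112). It did not pass, and Gpc3 lies within 107 kb of Gpc4 on chromosome X with 4 other annotated genes overlapping it.

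Gpc2 differed between libraries of different age. It had a lowest value of 58.4, a median of 67.1 and a highest value of 88.3 scaled TPM in the 8 libraries of day 26, and 45.0, 49.3 and 59.1 in the 9 of day 27. In WT (1 library of day 26 against 2 of day 27), Fmr1 KO (2 against 3) and the double mutant (2 against 2) every day 26 library was above every day 27 library. In Smad4 cKO the ranges overlapped. With so few libraries such a split is easily met, and the share of all genes that show it was not computed. With genotype in the model the log2 difference of day 27 from day 26 was -0.39 ± 0.07 (limma adjusted p = 0.0186), and Gpc2 was the 1 member of 8 that passed, where 4.03% of all genes did. Without WT replicate 1, the only WT library of day 26, the difference was -0.38 but its adjusted p was 0.0788, and the number of genes passing went from 606 to 0. The mean neuron marker score was -0.44 on day 26 and 0.55 on day 27, and the microglia score 0.51 and -0.63. With neuron, oligodendrocyte and endothelial scores in the model the Gpc2 difference was -0.26 (adjusted p = 0.373). Sdc3 differed between the days by -0.21 ± 0.07 and did not pass (adjusted p = 0.112). The 2 libraries of day 28 were outside this comparison and held 54.4 (WT) and 65.0 (Smad4 cKO) of Gpc2. The day comparison was chosen after values were seen.

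**Figure D4:**
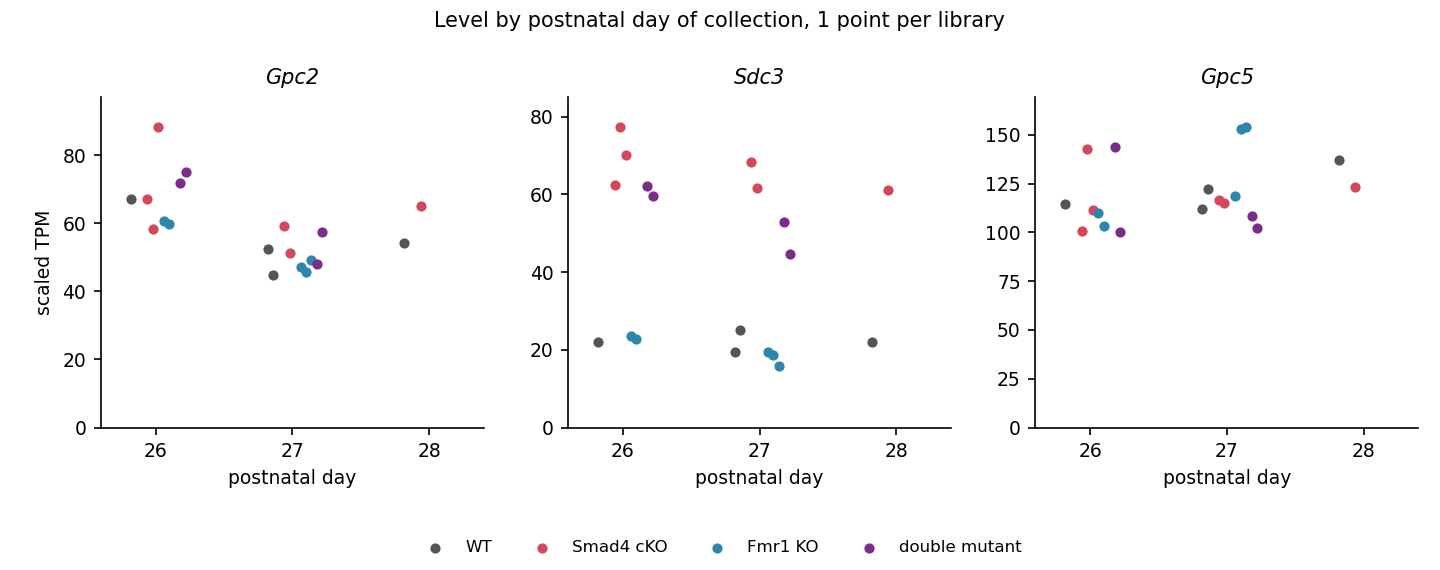
Scaled TPM of Gpc2, Sdc3 and Gpc5 against postnatal day, 1 point per library coloured by genotype label, with points set apart sideways within a day. Gpc2 lies at 58.4 to 88.3 on day 26 and 45.0 to 59.1 on day 27, Sdc3 separates by Smad4 label on each day, and Gpc5 spreads from 100.02 to 154 with no such split.

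Members varied together in 1 of 28 pairs. With group means removed, Gpc5 and Gpc6 had Pearson's r = 0.707 (permutation adjusted p = 0.0160) and Spearman's rho = 0.684 (adjusted p = 0.0476) over 19 libraries. Without the 2 libraries farthest from the median r was 0.562. The permutation moved centred values freely across genotypes and made no allowance for the group means removed. These p-values are therefore somewhat too small, and the pair is not a firm call. Within day 26 r was 0.764 (8 libraries) and within day 27 it was 0.451 (9 libraries). These genes lie next to each other on chromosome 14, 400 kb apart, with spans of 1433 kb and 1051 kb of which 0.311% and 0.611% are exonic. If reads were counted over gene bodies, introns would thus make up almost all of the counted length. The share of reads from introns was not measured.

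Of 64 relations between a member and a cell-type marker score, 4 passed after adjustment by Pearson's r. Their p-values have the limit given above for centred values. Gpc2 fell with the neuron score (r = -0.746, rho = -0.765, permutation adjusted p = 0.0115 and 0.0109) and rose with the astrocyte score (r = 0.739, rho = 0.756, adjusted p = 0.0115 and 0.0109). Within days the relation of Gpc2 to the neuron score was weaker, at r = -0.506 on day 26 and -0.503 on day 27. Its relation to the astrocyte score was also weaker within days, at 0.402 and 0.373. Gpc1 rose with the neuron score (r = 0.675, rho = 0.675, adjusted p = 0.0282 and 0.0424), at 0.768 and 0.818 within the days. Gpc1 exons are overlapped on the other strand by the protein-coding gene Ankmy1 and the antisense gene Gm29481, whose reads cannot be told apart from those of Gpc1 without strand. Gpc6 fell with the oligodendrocyte score (r = -0.662, rho = -0.633, adjusted p = 0.0282 and 0.0446), at -0.848 and -0.337. Without the 2 farthest libraries the 4 values of r were -0.638, 0.706, 0.589 and -0.749. By rho alone, Gpc1 also passed with the oligodendrocyte score (rho = 0.656, permutation adjusted p = 0.0424). So did Gpc2 with the microglia score (rho = 0.644, permutation adjusted p = 0.0446). By r each of these had a permutation adjusted p of 0.145. Sdc3 passed with none of the 8 scores, its largest r being 0.457 (adjusted p = 0.287). The part of other cell types in these relations was not tested.

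Genes around the proteoglycans were followed in 6 lists of 90 genes, of which 78 were tested. With the Smad4 label, averaged over both Fmr1 backgrounds, 3 were higher and 1 was lower, against 1.04% and 0.771% of all genes; the median change was -0.01 over the lists and 0.00 over all genes. By list the median was 0.01 for chain assembly, -0.06 for modification and degradation, -0.07 for other heparan sulfate proteoglycans, -0.01 for shedding and cytoplasmic partners, -0.06 for neuronal and synaptic partners and 0.05 for secreted ligands. In either simple Smad4 comparison 0 of the 78 passed.

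The heparan sulfate chain is built by 12 tested assembly genes, of which 1 was higher and 0 lower. Ext1, a subunit of the polymerase, was at 41.5 ± 6.69 scaled TPM in WT and 51.9 ± 2.6 in Smad4 cKO, a log2 difference of 0.33 ± 0.09, and at 44.3 ± 3.01 in Fmr1 KO and 52.5 ± 6.52 in the double mutant, a difference of 0.24 ± 0.10. Averaged over both backgrounds it rose by 0.28 ± 0.07 (limma adjusted p = 0.0408), a call lost in 17 of 30 alternatives, with adjusted p up to 0.227. Of 16 tested genes for chain modification and degradation, 1 was higher. That gene, Papss2, makes the sulfate donor and was at 15.8 ± 4.87 in WT and 25.9 ± 4.49 in Smad4 cKO (0.70 ± 0.17), and at 13.2 ± 2.38 in Fmr1 KO and 19.3 ± 3.5 in the double mutant (0.51 ± 0.18). The averaged rise was 0.61 ± 0.13 (limma adjusted p = 0.0128), and it passed in all 30 alternatives.

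Of 12 tested shedding and cytoplasmic partners, 1 was higher and 1 lower with the Smad4 label. Gpld1, a phospholipase that cleaves glycosylphosphatidylinositol anchors, was at 67.8 ± 6.8 in WT and 93.0 ± 12.2 in Smad4 cKO (0.45 ± 0.11), and at 81.7 ± 11.5 in Fmr1 KO and 103 ± 4.33 in the double mutant (0.34 ± 0.11). On average it rose by 0.39 ± 0.08 (limma adjusted p = 0.00791), and it passed in 29 of 30 alternatives. Cask, a scaffold that binds syndecan tails, was at 14.6 ± 0.928 in WT and 12.5 ± 0.512 in Smad4 cKO (-0.21 ± 0.07), and at 18.3 ± 1.38 in Fmr1 KO and 15.2 ± 1.51 in the double mutant (-0.25 ± 0.07). On average it fell by 0.23 ± 0.05 (limma adjusted p = 0.0215), a call lost in 5 of 30 alternatives. Of 7 other heparan sulfate proteoglycans, 17 secreted ligands and 14 neuronal and synaptic partners, 0 passed. Among those partners Gpr158, a neuronal receptor of Gpc4, differed by 0.47 ± 0.24 (limma adjusted p = 0.494).

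**Figure D5:**
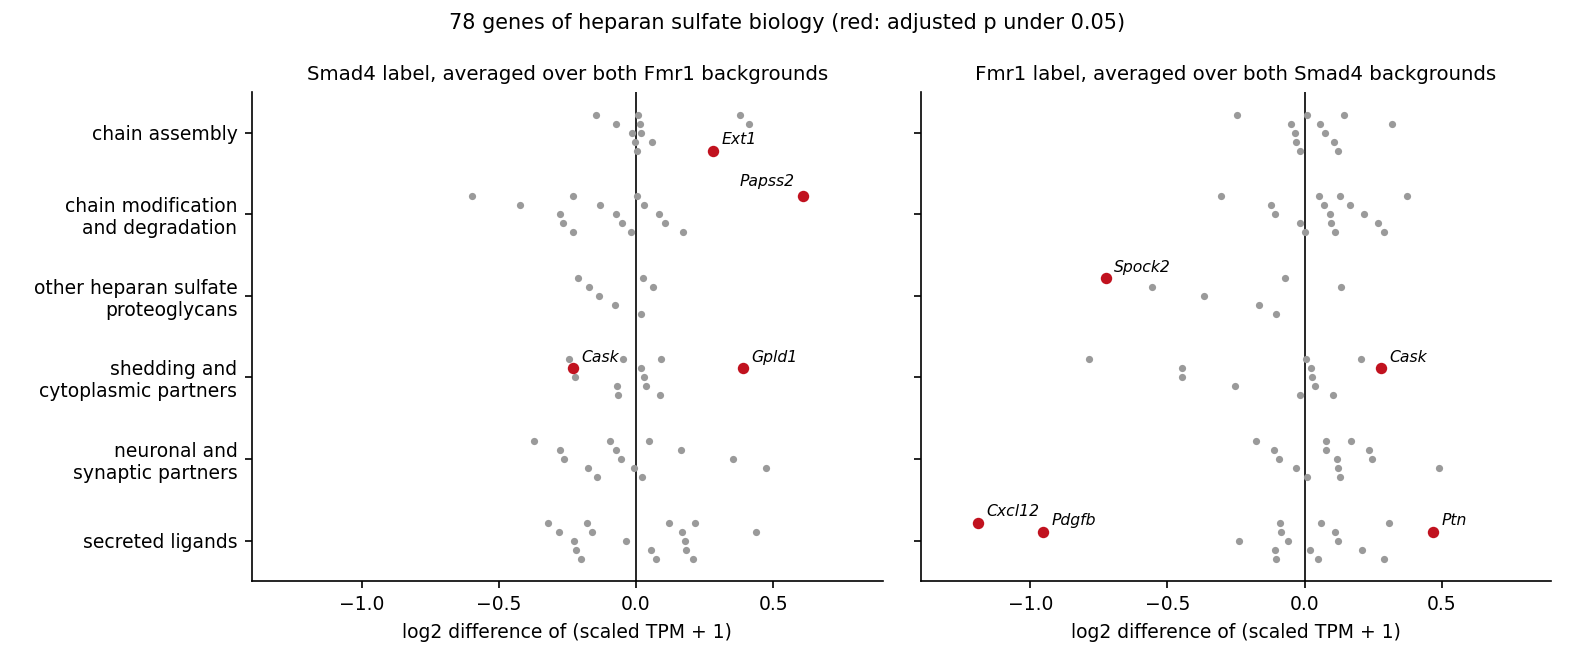
Log2 difference of (scaled TPM + 1) of 78 genes in 6 lists, averaged over backgrounds, for the Smad4 label (left) and the Fmr1 label (right); each point is a gene, and red points passed at an adjusted p under 0.05. Ext1, Papss2 and Gpld1 are higher and Cask lower on the left, and Cask and Ptn higher and Spock2, Pdgfb and Cxcl12 lower on the right.

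With the Fmr1 label, averaged over both Smad4 backgrounds, 2 of the 78 genes were higher and 3 lower, against 0.299% and 1.23% of all genes. The median change was 0.03 over the lists and 0.01 over all genes, and by list it ran from -0.17 for other heparan sulfate proteoglycans to 0.10 for neuronal and synaptic partners. None of the 5 genes passed in either simple Fmr1 comparison. Ptn, the pleiotrophin that binds Sdc3, was at 178 ± 32.9 scaled TPM in WT and 273 ± 21.7 in Fmr1 KO (0.62 ± 0.13), and at 209.6 ± 42.9 in Smad4 cKO and 257 ± 10.6 in the double mutant (0.32 ± 0.13). Its averaged rise was 0.47 ± 0.09 (limma adjusted p = 0.0193). Cask rose on average by 0.28 ± 0.05 (limma adjusted p = 0.0164), opposite in sign to its Smad4 difference. On the same averaged scale Spock2, a secreted testican proteoglycan, fell by 0.73 ± 0.13 (adjusted p = 0.0179), Pdgfb, a growth factor of endothelial cells, by 0.95 ± 0.17 (adjusted p = 0.0164), and Cxcl12, a chemokine, by 1.19 ± 0.27 (adjusted p = 0.0349). Of 30 alternatives the call was lost in 5 for Ptn, 4 for Spock2, 3 each for Pdgfb and Cask, and 16 for Cxcl12, whose sign turned in 1 more.

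Endothelial markers moved with the Fmr1 label averaged over both Smad4 backgrounds, with a median change of -1.04. There, 6 of 10 passed as lower, against 1.23% of all genes, but 0 passed in either simple Fmr1 comparison. Their summed level ranged over 129 to 603 in WT and 79.6 to 244 in Fmr1 KO. The ribosomal precursor Rn45s had a lower mean share of the listed TPM with the Fmr1 KO label. It took 29.2 ± 6.36% in WT (20.7 to 35.7) against 19.7 ± 2.57% in Fmr1 KO (17.2 to 22.8). The share was 26.1 ± 5.06% in Smad4 cKO (21.3 to 35.1) against 18.6 ± 3.59% in the double mutant (15.6 to 23.1). These ranges overlapped, the difference was not tested, and neither was the part of Rn45s in the changes by this label. With marker scores in the model the 3 falls were -0.10 for Spock2, -0.26 for Pdgfb and 0.01 for Cxcl12, the rises were 0.37 for Ptn and 0.16 for Cask, and none of the 5 genes passed. In that model 0 genes of all tested passed with the Fmr1 label by limma.

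The tested genes most like Sdc3 over the 19 libraries were Plekhd1, Scube1, Ldlrad4, Scel and Lgr6. Likeness was the root-mean-square difference of log2 values centred on each gene's mean, which was 0.245, 0.281, 0.304, 0.349 and 0.352 for these genes and 0.820 for the median gene. Because Sdc3 differs by Smad4 label, this measure favours genes that do so too. Plekhd1 was at 4.41 ± 1.12 scaled TPM in WT, 15.8 ± 3.1 in Smad4 cKO, 4.88 ± 0.467 in Fmr1 KO and 15.2 ± 5.22 in the double mutant. Scube1, a secreted protein with EGF-like repeats, stood at 3.49 ± 1.09, 12.0 ± 2.6, 3.43 ± 0.379 and 12.2 ± 1.78 in the same order. Lgr6, a receptor for R-spondins, stood at 5.56 ± 0.717, 14.5 ± 3.19, 5.83 ± 1.27 and 12.5 ± 3.92. The mean levels of all 5 were below that of Sdc3 in each group.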

How the data were processed

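Nuclear RNA of sorted cortical nuclei was sequenced from ribosomal RNA-depleted libraries. Per the submitters' processing notes, bcl2fastq 2.20, MultiQC 1.0, STAR 2.5.3a and HOMER 4.10.4 were used with the mm10 build; the role of each is not stated there. The deposited values are TPM, 1 column per library, made by the authors; they keep no read depth, and 0 further columns of sample values were found. Listed TPM summed to between 665382 and 716222 per library.

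Here, TPM were divided by a library factor (0.918 to 1.07), and log2(scaled TPM + 1) of genes with a mean of at least 1 TPM was fitted with limma 3.58.1 in R 4.3.3, all 4 genotypes sharing 1 spread, with Benjamini-Hochberg adjustment over 15049 genes and a threshold of 0.05. The pseudocount of 1 understates changes of low genes. Python 3.11.15 with scipy 1.17.1 gave exact permutation tests and correlations with 100000 permutations, adjusted within each family. The correlations permuted group-centred values over all 19 libraries without allowance for the centring, so their p-values are somewhat too small. The fit was tested on simulated data with 200 changed genes, in which every gene varied independently of the others. For Smad4 cKO against WT the share recovered was 44% of genes changed 1.41-fold and 72% of those changed 2-fold. There, 6 unchanged genes were called. Variation shared between genes was not simulated, so these figures do not cover it. Alternatives changed the pseudocount (0.1 or 0.5), the filter, the scaling, the samples, the covariates and the design.

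The members and lists were chosen with earlier results of these data known. Named beside all 10 members are pathway genes that passed in any comparison, or else the 2 of a list with the smallest p, and the 5 genes nearest to a member that passed. Some results that this rule would name are not reported here. Marker scores are means, over each of 8 cell-type lists, of log2 values centred on each gene's mean. Sequences are from RefSeq (GRCm38.p6).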

Additional observations from a re-analysis of the deposited data

How the results depend on the processing

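The number of the 8 tested members that passed was 1 (Sdc3) with the Smad4 label, in both simple comparisons and averaged, and in the double mutant against WT, and 0 in the other comparisons, under every alternative run. The change of Sdc3 averaged over both backgrounds stayed between 1.44 and 1.53. Same-numbered libraries did not pair: 5 of 25 correlations of their deviations were above 0.1, with a range of -0.27 to 0.20. With the replicate block Sdc3 rose by 1.61 in Smad4 cKO against WT and by 1.37 in the double mutant against Fmr1 KO, and 1 member passed in each. Over all genes the block moved the calls in these comparisons from 118 to 63 and from 61 to 21, in the double mutant against WT from 144 to 93, and with the averaged Fmr1 label from 230 to 2, where it ended the calls of Ptn, Cask, Spock2, Pdgfb and Cxcl12 (adjusted p 0.0853 to 0.0880); with the averaged Smad4 label it ended those of Ext1 (0.129) and Cask (0.104). That last Fmr1 count was 607 on TPM as deposited, 70 after quantile normalization, 110 with a filter of 5 TPM, 4 without day 28 and 0 with marker scores. Leaving out 1 library gave 44 (without double mutant replicate 2) to 389 genes (without WT replicate 3) for the averaged Fmr1 label, 81 (without WT replicate 2) to 269 (without WT replicate 3) for the double mutant against WT, where TPM as deposited gave 360 and marker scores 23, and 27 (without Fmr1 KO replicate 5) to 62 for the double mutant against Fmr1 KO. Fmr1 KO against WT went from 0 to 163 genes without WT replicate 3 and to 84 when the library with the top neuron score was dropped from every group, an alternative chosen after seeing the data. With the compared groups alone, Smad4 cKO against WT gave 62 genes and the double mutant against Fmr1 KO gave 20. The Fmr1 change of Cxcl12 turned to 0.0111 with marker scores. Leaving out 1 library left the Gpc2 difference between days at -0.43 to -0.35. Apart from those computed, the causes of these shifts were not tested. TPM without depth gives no counting error, and for Sdc1 and Gpc3, below 1 TPM, a change could be missed.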
